A study of Drosophila melanogaster with 4 samples.

Results

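3RHet is an assembled part of the heterochromatin beside the centromere on the right arm of chromosome 3. It is kept as a sequence of its own (2.52 Mb) in release 5 of the *Drosophila melanogaster* genome. The data are regions enriched for the protein Su(var)3-7 in chromatin immunoprecipitation and sequencing (ChIP-seq). The members are the 339 enriched regions that the authors' combined list places on 3RHet, of 10603 regions on all sequences. The lists of the separate replicates place 297 of 6098 regions (replicate 1) and 239 of 6295 regions (replicate 2) there. Membership follows from the sequence name alone, so it uses neither score nor width.

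The chromatin came from whole wild-type embryos of the Oregon-R strain at 14 to 16 h of development, fixed in 1.8% formaldehyde, and was precipitated with the antibody Q3448 against Su(var)3-7. There are 2 ChIP libraries and 2 input libraries (genomic DNA that was not precipitated), each numbered as replicates 1 and 2 in the labels. Which input was used with which ChIP library is not stated in the labels. Whether replicate numbers stand for different embryo collections is not stated in the labels, so the spread between them may be technical. Whole embryos mix many cell types, and fewer cells with bound protein cannot be told apart from less protein bound per cell. No read counts come with the regions, and the depth behind each one is unknown.

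Su(var)3-7 is a zinc-finger protein first known from its effect on position-effect variegation, the patchy silencing of genes placed near heterochromatin. It binds DNA and the heterochromatin protein HP1 and is found on pericentric heterochromatin and on chromosome 4. Pericentric sequence is rich in transposon remnants and satellite repeats, carries histone H3 methylated at lysine 9, and holds few genes. In release 5 some parts of it that were assigned to an arm are kept apart from the long arms under names ending in Het. 3RHet thus lies on the centromere side of arm 3R, whose low coordinates are its proximal end.

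Su(var)3-7 regions took up a large part of 3RHet in each list, and much more of it in replicate 1 than in replicate 2. They covered 49.9% of its bases in replicate 1 and 33.0% in replicate 2, a mean of 41.4% ± 12.0 (SD, n = 2). On the 5 euchromatic arms, each taken over its whole length with its proximal end, the values were 11.6% and 11.8%. The combined list covered 58.7% of 3RHet, or 1.48 Mb, against 20.5% of the euchromatic arms. The lower replicate on 3RHet thus lay well above both replicates on the euchromatic arms. With 2 replicates an exact test over samples cannot pass a conventional threshold, so this and the other differences between sequences are given as values without a test.

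The replicates differed more on 3RHet than on 2LHet, 2RHet and 3LHet. Coverage in replicate 1 was 1.51 times that in replicate 2 on 3RHet, 1.25 times on 2LHet, 1.23 times on 2RHet and 1.22 times on 3LHet, its counterpart on the left arm. The gap between the replicates was 16.9 percentage points on 3RHet and 12.2 on 3LHet. The small YHet, with 10 and 7 regions, had a ratio of 1.80, and the unplaced sequence U had 1.47. The first 1 Mb of arm 3R, its proximal end, was covered over 41.0% in replicate 1 and 39.4% in replicate 2, a ratio of 1.04. The whole of 3R was covered over 7.95% and 8.62%, so its first 1 Mb is not typical of the arm. Mean coverage was about the same on 3RHet and on this first 1 Mb (40.2% ± 1.09, SD, n = 2). The replicates lay far apart on 3RHet and close together on the first 1 Mb of 3R. How each replicate's reads from repeats were placed is not given in the sources used here, and the part of it in this difference was not tested.

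**Figure D1:**
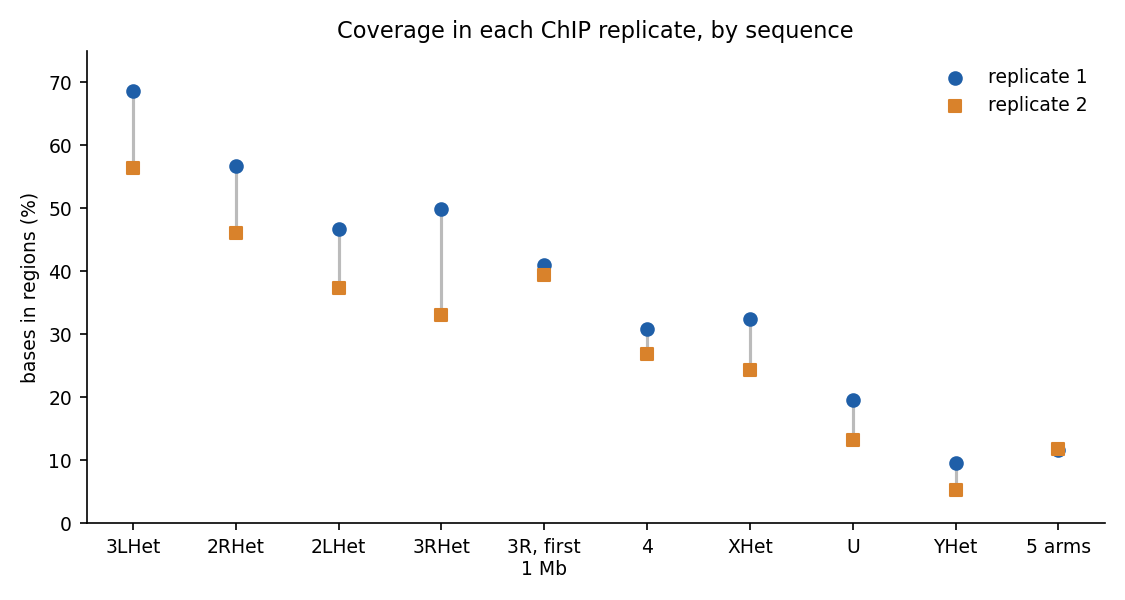
Percent of bases inside enriched regions (vertical axis) on each sequence or set of sequences (horizontal axis) in ChIP replicate 1 (circles) and replicate 2 (squares), joined by a grey line. On 3RHet the points lie at 49.9% and 33.0%, while on the first 1 Mb of 3R (41.0% and 39.4%) and the 5 euchromatic arms (11.6% and 11.8%) they almost coincide.

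Regions on 3RHet were narrower than on 3LHet and 2RHet, the other Het sequences of over 2 Mb. In replicate 1 their median width was 2834 bp, against 4127 bp on 3LHet and 4397 bp on 2RHet. In replicate 2 it was 2401 bp, against 3136 bp and 3261 bp on those sequences, and 2044 bp on the euchromatic arms. The short 2LHet (38 and 33 regions) had medians of 2611 bp and 2417 bp, close to those of 3RHet. Their number per length showed no such common order. Replicate 1 had 118 regions per Mb on 3RHet and 104 on 3LHet, whereas replicate 2 had 94.9 and 115. Over both replicates the median width on 3RHet was 2617.5 bp ± 306.2 (SD, n = 2).

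Most of the regions were short, and a small number of wide ones held much of the covered sequence. In the combined list widths ran from 1001 bp to 44841 bp, with 25% of regions at or below 1809 bp and 25% at or above 5031 bp. The 27 combined regions of 10 kb or more made up 7.96% of the regions, against 4.09% of the combined list over all sequences, and 30.9% of the deposited bases of regions on 3RHet. In the replicates the share of such wide regions was close to that over all sequences. It was 6.06% (18 of 297) against 5.10% in replicate 1 and 3.77% (9 of 239) against 3.40% in replicate 2. The widest region measured 38917 bp in replicate 1 and 21657 bp in replicate 2.

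Of the 5 widest combined regions, each was nearly filled by replicate 1 regions, and replicate 2 filled them to different extents. The widest, 3RHet 1893706 to 1938546 (44841 bp, score 1.26), was covered over 97.2% by 2 regions of replicate 1 and over 92.3% by 6 regions of replicate 2. The next, 1819349 to 1845196 (25848 bp, score 1.54), was covered over 97.1% and 93.5%. Region 1662585 to 1687431 (24847 bp, score 1.07) was covered over 99.7% and 98.6%, the closest agreement of the 5. The remaining 2 lay outside the densest stretch of the sequence. Region 623534 to 649021 (25488 bp, score 1.09) was covered over 98.1% and 86.3%. Region 2276680 to 2301109 (24430 bp, score 0.788) was covered over 99.4% by replicate 1 but 54.0% by replicate 2, where it was split into 5 regions.

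Regions followed each other closely in replicate 1 and at wider intervals in replicate 2. The median gap from the end of a region to the start of the next was 1955 bp in replicate 1, 3362.5 bp in replicate 2 and 1333 bp in the combined list. Gaps of 10 kb or more numbered 25 in replicate 1 and 49 in replicate 2, and they took up 21.7% and 42.2% of the sequence. On 3LHet, of like length, there were 12 and 18 such gaps. At the other end, 55 of 296 gaps in replicate 1 and 30 of 238 in replicate 2 were under 500 bp. Gaps may span stretches of unknown bases in the assembly, which could not be read here without the release 5 sequence.

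A few long stretches of 3RHet held no region or almost none. The longest gap of the combined list ran from 445989 to 531933 (85945 bp), and neither replicate had a region within it. The next, 312602 to 367076 (54475 bp), was covered over 0.134% by replicate 1 and 0% by replicate 2. The third, 2381320 to 2431444 (50125 bp), was empty in both. Regions reached close to both ends of the sequence. The first region began at 2842 in the combined list, 4987 in replicate 1 and 5083 in replicate 2. The last replicate regions ended at 2506988 and 2507101. The last combined region, 2516556 to 2517701, runs 194 bp past the stated end of the sequence and overlaps no replicate region.

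Coverage varied several-fold along 3RHet and was highest between 1.4 and 2.2 Mb. Over the 25 full windows of 100 kb it ranged from 17.5% to 85.0% in replicate 1, with a median of 50.0%. In replicate 2 it ranged from 11.8% to 77.3%, with a median of 24.2%. Both minima fell in the window from 300001 to 400000 and both maxima in the window from 1900001 to 2000000. The windows ranked alike in the replicates, with a Spearman rho of 0.907 across 25 windows, which are neighbours on 1 sequence and not independent.

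The 800 kb from 1400001 to 2200000, limits chosen after the window values were seen, were covered over 67.5% in replicate 1 and 54.7% in replicate 2 (mean 61.1% ± 9.07, SD, n = 2). The rest of 3RHet was covered over 41.7% and 22.8% (mean 32.3% ± 13.3). This stretch is 31.8% of the sequence and held 43.0% of the covered bases of replicate 1 and 52.7% of those of replicate 2. Regions that start in it were wider and had higher scores than those that start before it. Median widths were 3819.5 bp against 2651.5 bp in replicate 1 and 2953.5 bp against 2254 bp in replicate 2. Median scores were 1.08 against 0.778 and 1.02 against 0.811 in the same order. The limits of the stretch were set on coverage in these lists, so these values describe it and test nothing.

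The division of the sequence at its midpoint gave the same direction. The 800 kb stretch lies wholly on the side of higher coordinates, so this comparison is not separate from it. Outside the stretch, coverage was 42.4% and 22.8% before it and 38.8% and 23.0% after it, in replicates 1 and 2. The side of lower coordinates was covered over 41.5% in replicate 1 and 22.8% in replicate 2, and the side of higher coordinates, which faces arm 3R if the sequence runs in arm order, over 58.4% and 43.1%. The difference was -18.6 ± 2.41 percentage points (lower minus higher, SD, n = 2). It was -16.9 in replicate 1 and -20.3 in replicate 2, and was not tested. The last part of the sequence did not share the high coverage, with 20.6% and 15.6% in the window from 2400001 to 2500000.

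**Figure D2:**
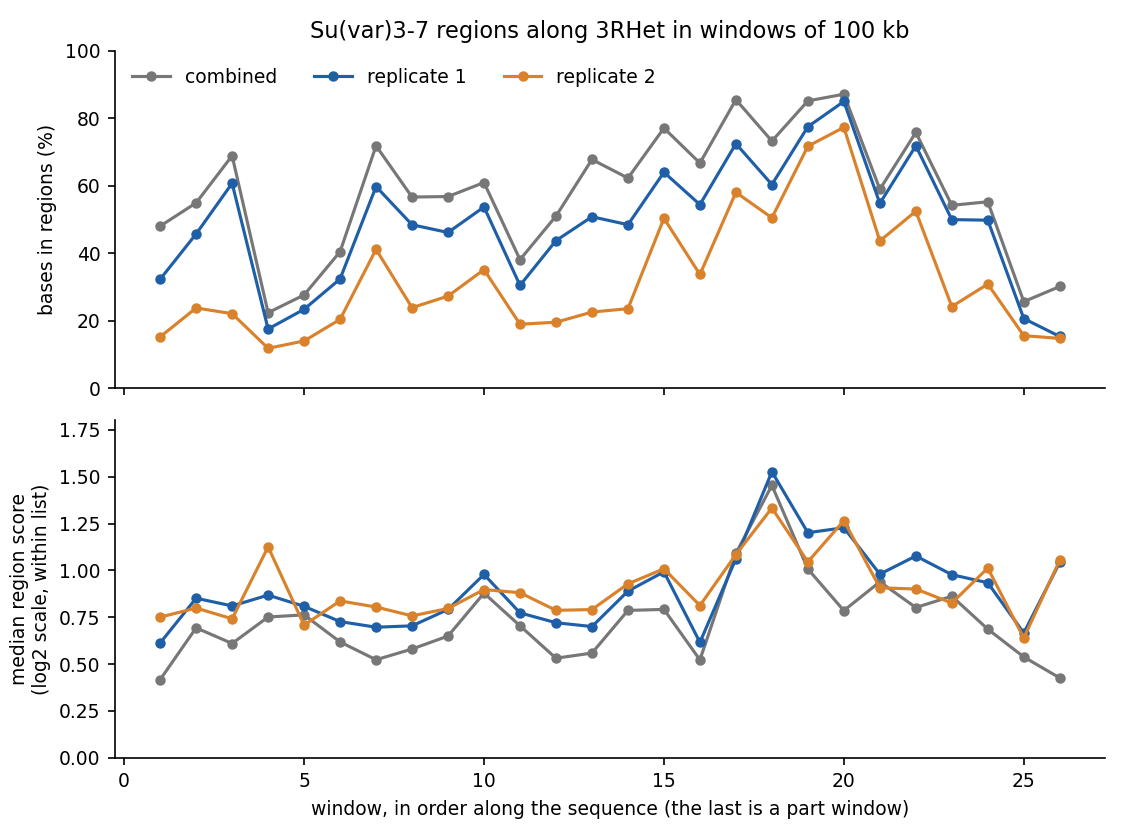
Upper panel, percent of bases inside enriched regions in consecutive 100 kb windows of 3RHet, and lower panel, median score of the regions that start in each window, for the combined list (grey), replicate 1 (blue) and replicate 2 (orange). Windows 15 to 22 hold the densest stretch, with maxima of 85.0% and 77.3% in window 20, and replicate 1 lies above replicate 2 in all 26 windows.

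Replicate 1 exceeded replicate 2 along the whole sequence, not at a few places. Its coverage was higher in 26 of 26 windows, also on 3LHet (26 of 26) and 2RHet (33 of 33). Over the full windows on 3RHet the gap ran from 5.08 to 38.6 percentage points, with a median of 18.6. The widest gap fell in the window from 200001 to 300000, with 60.7% in replicate 1 and 22.1% in replicate 2. The smallest ratio among full windows, 1.08, fell in the dense window from 1800001 to 1900000, with 77.5% and 71.7%. By ratio the replicates lay closer together in the densest stretch, with 1.23, than in the rest of 3RHet, with 1.83. That stretch was chosen for its high coverage, and a ratio has less room to rise where coverage is high. In percentage points the gap in windows of the stretch ran from 5.785 to 20.7, beside the median of 18.6 over the full windows.

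Replicate 2 lay almost wholly inside replicate 1. Of its 239 regions on 3RHet, 235 (98.3%, 95% Wilson interval 95.8 to 99.3) overlapped a replicate 1 region by at least 1 bp, against 79.5% over all sequences. The share was about as high on 3LHet (290 of 293 regions), 2RHet (98.2%) and 2LHet (97.0%). Replicate 1 covered 49.9% of 3RHet and 15.2% of all sequences, and higher coverage makes an overlap of 1 bp easier to meet. Its part in the 98.3% was not tested. With 50% reciprocal overlap the share on 3RHet was 61.5%. In the other direction 191 of 297 replicate 1 regions (64.3%, 58.7 to 69.5) had a partner, against 75.8% over all sequences. On 3LHet this second share was 80.0% (74.8 to 84.4) and on 2RHet 82.1% (77.2 to 86.1). The intervals cover counting error only and treat neighbouring regions as independent, which they are not. By bases, 96.4% of replicate 2 lay within replicate 1 and 63.7% of replicate 1 within replicate 2. Both replicates covered 800.2 kb, replicate 1 alone 456.5 kb and replicate 2 alone 29.8 kb.

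The extra sequence of replicate 1 came in nearly equal parts from additional regions and from wider ones. Regions without a partner held 225.6 kb of it (49.4%), and regions with a partner held 231.0 kb (50.6%) beyond the bases of replicate 2. In 130 of 156 pairs in which 1 region met 1 region, the replicate 1 region was the wider. Their median widths were 3192 bp and 2343.5 bp. In 41 cases a single replicate 1 region overlapped 2 or more replicate 2 regions, at most 5, and 9 replicate 2 regions overlapped 2 replicate 1 regions.

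**Figure D3:**
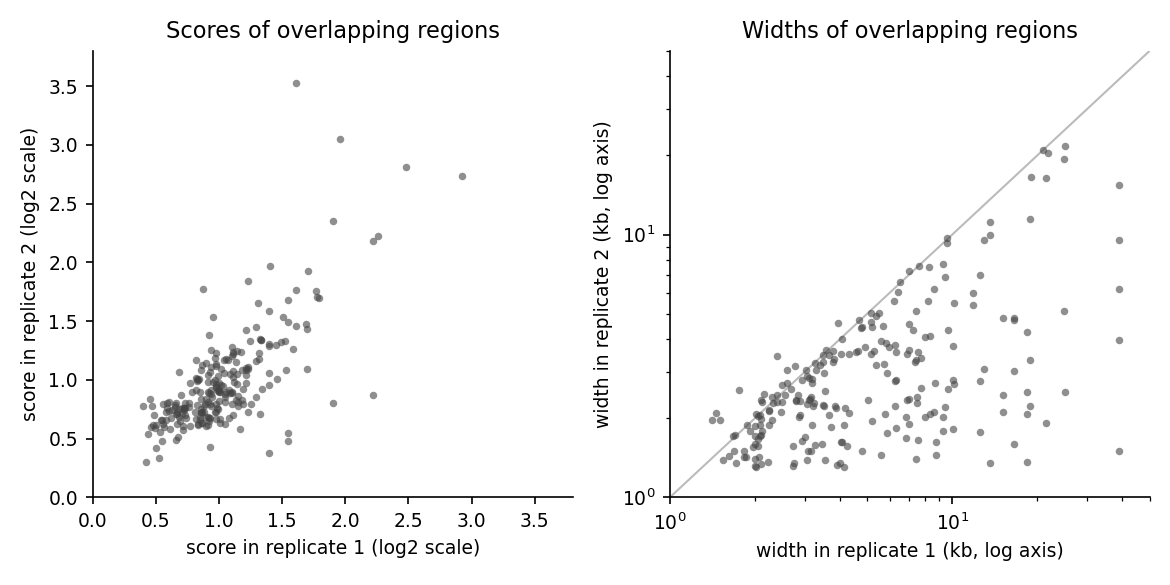
Each of 235 replicate 2 regions on 3RHet against the replicate 1 region it overlaps most, by score (left, log2 scale, each list with its own zero) and by width (right, log axes in kb, grey line at equal width). Scores rise together (Spearman rho 0.663) and most points in the width panel lie below the line, where the replicate 1 region is wider. Of the replicate 1 regions, 34 stand behind 2 or more points.

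Replicate 1 regions without a partner were narrower and lower in score than those with one. Their median width was 1934 bp against 3650 bp, and their median score 0.699 against 0.934. In the lowest-scoring 25% of replicate 1 regions 40.5% (30.1 to 51.9) had a partner, then 55.4%, 78.4% and, in the highest-scoring 25%, 82.7% (72.6 to 89.6). Median widths of these classes rose too, from 1900.5 to 2785.5, 3468 and 4175 bp, and wider regions meet an overlap of 1 bp more easily. Score and width were not separated. Shares by score class are not given over all sequences, where 75.8% of replicate 1 regions had a partner. The rise is therefore not read as particular to 3RHet. The 3 widest without a partner were 274871 to 282404 (7534 bp, score 0.648), 2262932 to 2267755 (4824 bp, score 1.03) and 685729 to 690227 (4499 bp, score 0.615). High scores without a partner also occurred. Region 807941 to 809781, the second highest of replicate 1 on 3RHet at 2.76, met no replicate 2 region.

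In replicate 2 a partner was found for 59 of 60 regions in the lowest-scoring 25%, then for 59 of 59, 60 of 60 and, in the highest-scoring 25%, 57 of 60. The 4 regions without a partner measured 1313 to 1448 bp, with scores of 0.512 to 1.35. The widest 3 were 890419 to 891866, 370873 to 372239 and 200700 to 202062.

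**Figure D4:**
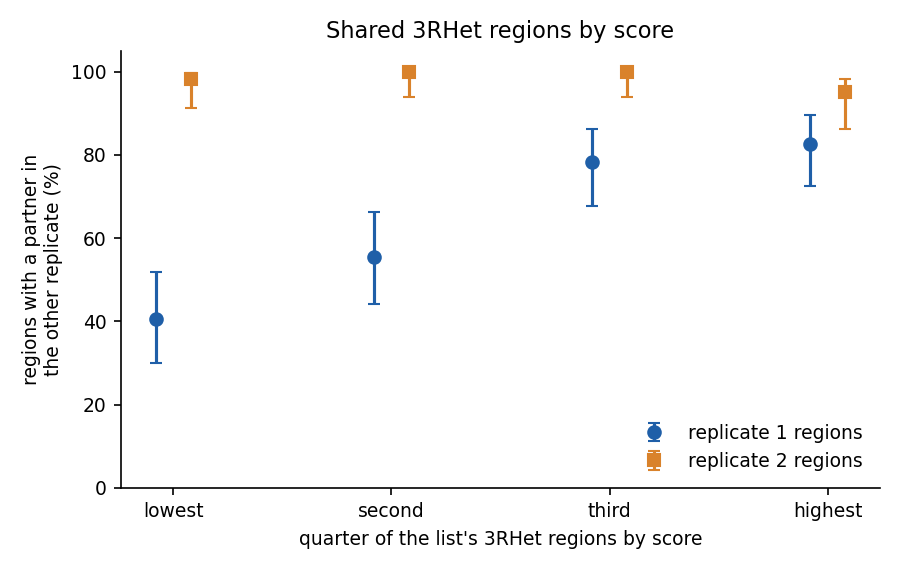
Percent of 3RHet regions that overlap a region of the other replicate (vertical axis), by 25% classes of the list's own score (horizontal axis), with 95% Wilson intervals for counting error, for replicate 1 (circles) and replicate 2 (squares). The share rises from 40.5% to 82.7% in replicate 1 and in replicate 2 is lowest in the highest-scoring class, with 57 of 60 regions. Median width also rises across the replicate 1 classes, from 1900.5 to 4175 bp. Shares by score class over all sequences are not given.

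The score of a region is the authors' own value, deposited without a stated scale. Its values behave as log2 ratios. In the combined list 149 of 8590 distinct scores had a counterpart exactly 1 higher, to a tolerance of 3e-09, and 264 had one higher by the log2 of 1.5. For the log10 and the natural logarithm of 2 the number was 0 in each of the 3 lists. The counts for 1 and for the log2 of 1.5 were similar in replicate 1 (135 and 221 of 5137) and in replicate 2 (123 and 237 of 4878). A difference of 1 is therefore read here as a factor of 2 within a list. The zero of each list is not known, so scores are not compared between lists.

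Scores on 3RHet lay above those of the euchromatic arms and below those of the other Het sequences when pooled. The median on 3RHet was 0.861 in replicate 1 and 0.888 in replicate 2. It exceeded that of the euchromatic arms by 0.29 in replicate 1 and by 0.21 in replicate 2. Against the other 5 Het sequences together it was lower, with differences of -0.26 and -0.11. The same order held in the combined list, where the differences were 0.28 and -0.24. In replicate 1 and the combined list, single Het sequences did not all lie above 3RHet. The median of XHet was 0.732 in replicate 1 (23 regions), and among its 26 combined regions it was 0.551, below the 0.691 of 3RHet. In replicate 2 all of the other 5 lay above 3RHet, the lowest being XHet with a median of 0.914 (18 regions). The highest-scoring 10% of a list, 10.0% of regions by construction, took in 10.8% (32 of 297) of the 3RHet regions in replicate 1, close to that background, and 15.1% (36 of 239) in replicate 2. Wider regions had higher scores, with a Spearman rho of 0.508 across regions in replicate 1 and 0.461 in replicate 2.

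The highest-scoring replicate regions recurred in part. In replicate 1 the top region was 1011117 to 1013434 (2318 bp, score 2.93), which met a replicate 2 region with a score of 2.74. The third, 1433684 to 1435926 (score 2.48), was the third of replicate 2 too, where it ran from 1433756 to 1435890 with a score of 2.81. The top 2 regions of replicate 2 were 1719820 to 1721255 (1436 bp, score 3.53) and 2112255 to 2113856 (1602 bp, score 3.05). Each met a replicate 1 region, with scores of 1.61 and 1.96. Over 235 pairs on 3RHet scores had a Spearman rho of 0.663, and over the 156 pairs of 1 region with 1 region it was 0.785. Among the 235 pairs, 34 replicate 1 regions occur in 2 or more pairs, each time with the same score. Neighbouring regions also share sequence context, so these pairs are not independent.

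The combined list was not a union of the replicates. Of its 339 regions on 3RHet, 177 (52.2%, 46.9 to 57.5) overlapped both replicates, against 38.6% over all sequences. On 3LHet this share was 71.9% (66.0 to 77.1), on 2RHet 66.4% (61.0 to 71.5) and on 2LHet 68.4% (52.5 to 80.9), so 3RHet lay above the whole list and below these sequences. A further 92 (27.1%, 22.7 to 32.1) overlapped replicate 1 alone, against 12.1%, and 2 (0.590%) replicate 2 alone, against 10.6%. The remaining 68 (20.1%, 16.1 to 24.6) overlapped neither, against 38.7%. The share in replicate 1 alone was 16.1% (12.0 to 21.1) on 3LHet and 13.8% (10.4 to 18.1) on 2RHet. Counted as whole regions, those in both held 77.3% of the deposited bases of the combined regions and those in neither 6.69%. Counted base by base, 206.7 kb of the combined list, 14.0% of its bases, lay in neither replicate. Of the replicate regions, 2 of replicate 1 and 0 of replicate 2 had no counterpart in the combined list. The share over all sequences is not given here, so these counts are not read as particular to 3RHet.

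Regions of these classes differed in width and score on 3RHet. Values by class are not given over all sequences, so the differences are not read as particular to 3RHet. Those in both replicates had a median width of 4598 bp and a median score of 0.801. Those in replicate 1 alone measured 2120 bp and scored 0.468. Those in neither measured 1275.5 bp but had a median score of 0.745, above that of the regions in replicate 1 alone. The highest-scoring 10% of the combined list, again 10.0% over all sequences, held 64 of the 339 regions (18.9%). These were 41 regions in both replicates, 3 in replicate 1 alone and 20 in neither.

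The 5 highest scores of the combined list on 3RHet belonged to regions that neither replicate list holds. They were 794143 to 795156 and 2223818 to 2224920, each with a score of 3.54, 722299 to 723306 and 2011449 to 2012452, each with 3.28, and 767742 to 768742 with 2.96. Their widths were 1001 to 1103 bp, at the lower end of the list. Scores of the first 2 were identical to the last deposited digit, and so were those of the next 2. Of the 68 regions in neither replicate 46 were under 1500 bp wide, as were 0 of the 177 in both. The like counts over all sequences are not given, and this may hold for the list as a whole.

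Such equal scores were common among narrow regions. On 3RHet 83 of 339 combined regions (24.5%) had a score equal to that of another region of the list, against 30.3% over all sequences. The shares were 22.9% against 26.3% in replicate 1 and 31.8% against 36.0% in replicate 2. Combined regions with such a score had a median width of 1549 bp and the others 3517 bp. On 3RHet they made up 60.3% (41 of 68) of the regions in neither replicate and 5.65% (10 of 177) of those in both. These shares by class are not given over all sequences either. Read counts behind these scores are unknown, and their part in the high scores of narrow regions was not tested.

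The 3 lowest scores lay in regions below the median width of the combined list on 3RHet, 2842 bp. Region 376461 to 378093 (1633 bp, score 0.139) was covered over 98.3% by 1 replicate 1 region and by none of replicate 2. Region 219213 to 221023 (1811 bp, score 0.196) was covered over 100% in the same way. Region 877795 to 879046 (1252 bp, score 0.212) overlapped neither replicate.

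**Figure D5:**
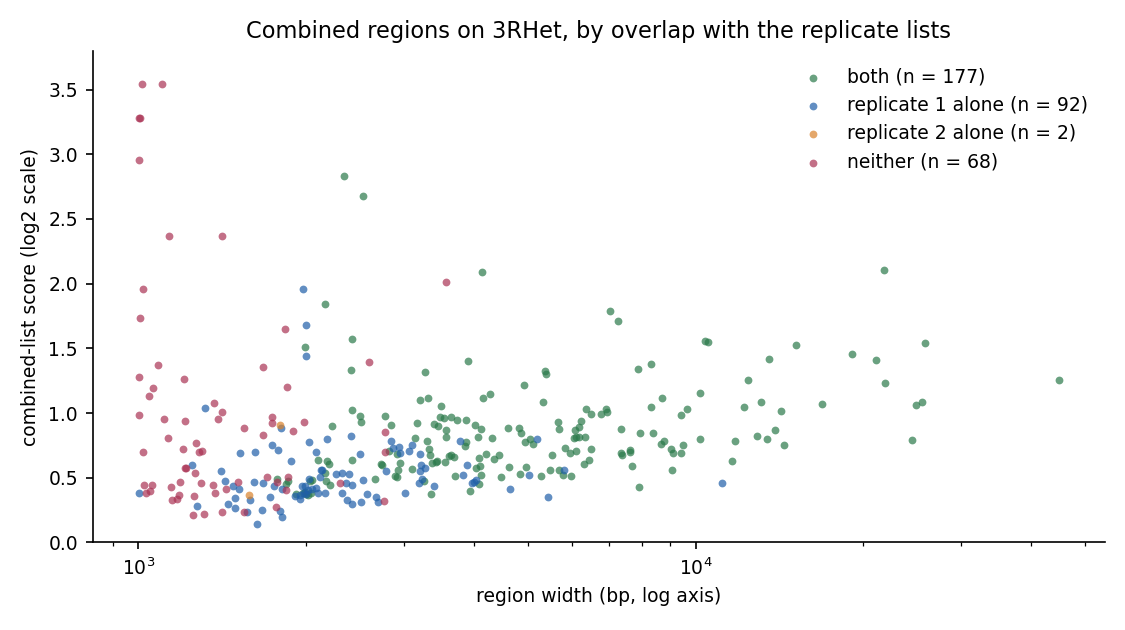
Width (horizontal, bp, log axis) and score (vertical, log2 scale) of each of the 339 combined regions on 3RHet, coloured by whether it overlaps both replicate lists (177), replicate 1 alone (92), replicate 2 alone (2) or neither (68). The 5 highest scores, 2.96 to 3.54, sit at widths of 1001 to 1103 bp in regions that overlap neither replicate, while the 5 widest regions overlap both and score between 0.788 and 1.54.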

How the data were processed

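Per the submitters' processing notes, Bowtie 0.12.7 served as the aligner. The authors deposited, for each ChIP replicate and for the pair, a list of regions with a score per region in coordinates of FlyBase release 5, per the file headers. Not given in the sources used here are the region caller with its thresholds, the treatment of reads from repeats and how the replicates were combined. Without read counts, depth and its error are unknown.

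Rows marked as enriched on 3RHet were read with Python 3.11.15, NumPy 2.4.6 and SciPy 1.17.1, and counts of bases stop at the stated sequence end. Coverage is the percent of bases inside regions. Partners overlap by at least 1 bp. Interval code was tested on simulated lists. Shares carry 95% Wilson intervals. Means have the SD over 2 replicates, with no test across samples. Scores were not averaged over replicates as planned, since the zero of each list is unknown. Alternatives were overlap, score, joining, window and replicate choices. The sequence and the quantities were chosen with earlier results of these data known. Named regions follow a rule: in the combined list the 5 highest-scoring, 5 widest and 3 lowest-scoring and the 3 longest gaps, in each replicate the 3 highest-scoring and the 3 widest without a partner, and the ends of each list. No release 5 genome or gene table was used, so genes and bases are not given.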

Additional observations from a re-analysis of the deposited data

How the results depend on the processing

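Of 35 values under alternative settings, 20 stayed within the SD of the replicates or the counting interval of the value reported, 15 moved and 0 reversed. Score values and the coverage ratio of replicate 1 to replicate 2 have no such error, and all their alternatives count among those that moved. Leaving out a replicate gives the other replicate's own value, which lies within 1 SD of the mean of 2 by construction. Coverage of 3RHet was then 33.0% to 49.9%, a range of 1.51 times, so its mean rests on both libraries. For scores it was not run, since they were kept per list. The ratio of replicate 1 to replicate 2 was 1.57 in the higher-scoring 50% of each list, 1.55 relative to the euchromatic arms, 1.24 by numbers of regions and 1.53 with lists of equal length, a setting chosen after seeing the data. With 50% reciprocal overlap the shares with a partner were 49.5% in replicate 1 and 61.5% in replicate 2, while 33.9% of combined regions then overlapped both replicates and 25.7% neither, since this criterion can only remove matches. In the higher-scoring 50% of each list, 93.4% of replicate 2 regions had a partner and 60.4% of combined regions overlapped both replicates. In place of the median score of 0.861 in replicate 1, the mean was 0.918 and the mean weighted by width 1.07, and in place of 0.888 in replicate 2 they were 0.984 and 1.09, each on its own list's scale. Joining neighbours up to 500 bp apart raised the median gap from 2658.75 to 3778 bp, because the narrowest gaps are removed. Causes of the other moves were not tested. With 50 kb windows replicate 1 was higher in 50 of 51, and in the other one both were at 0%. No paired analysis was possible because a replicate number is shared only by a ChIP library and an input, and only ChIP regions were analysed here. Differences along 3RHet were taken within each replicate, such as that between its sides.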

Other observations

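Among the 20 highest-scoring combined regions on 3RHet, a number chosen after the scores were seen, 11 overlapped neither replicate, 7 overlapped both and 2 overlapped replicate 1 alone. Of these 20 regions, 9 were under 1500 bp wide and 10 had a score equal to that of another region of the list. Joining combined regions up to 1000 bp apart left 193 stretches on 3RHet. The widest of them ran from 1866555 to 1977862 (111308 bp), inside the densest part of the sequence. The same joining gave a widest stretch of 53791 bp in replicate 1, from 1662592 to 1716382, and of 34382 bp in replicate 2, from 1943027 to 1977408.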
